A study of Mus musculus with 36 samples.

Results

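An unmodified small interfering RNA against Tnf (siTNF) was compared with a scrambled siRNA in the colon of mice with chemically induced colitis. The members are the 6 arrays titled TNFa siRNA-A and the 7 arrays titled SiRNA-scrambled, 13 of the 36 arrays in the series, with 1 array per animal. All 36 mice, Control included, are labelled as treated with 5% dextran sulfate sodium (DSS), and the siRNAs were given intrarectally. The other groups are 9 Control mice, for which the siRNA or vehicle given, if any, is not settled by the labels, 6 mice whose Tnf siRNA carried O-methyl groups (siTNF-OMe) and 8 whose siRNA carried both O-methyl and propanediol changes (siTNF-OMe-P). Strain, sex, age, siRNA dose and sampling time are not given in the sources used here, and the siRNA sequences were not used here. The labels carry separate colon measurements for each animal, so a replicate is taken as 1 mouse.

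Tumour necrosis factor is a cytokine made mainly by activated macrophages and T cells. It binds the receptors encoded by Tnfrsf1a and Tnfrsf1b and drives the transcription factor NF-kB, whose targets include its own inhibitors Nfkbia and Tnfaip3 as well as chemokines and adhesion molecules. An siRNA is loaded into an Argonaute protein and directs cleavage of the matching messenger RNA, and unmodified double-stranded RNA can also be sensed by innate receptors that induce interferon genes. DSS injures the colon epithelium and brings in neutrophils and macrophages.

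Each array gave 28853 probe sets as log2 signals between 4.95 and 14.1, where a difference of 1 is a 2-fold difference. The 13 arrays carried colon epithelium: Vil1, an actin-bundling protein of the brush border, lay between 11.33 and 12.38, and the mean of the 16 measured goblet cell markers lay between 10.54 and 11.32. The siTNF arrays were spread over all 3 amplification batches (2 arrays in each) and both hybridization batches (3 in each), and the scrambled arrays over the same batches (1, 3 and 3 by amplification, 3 and 4 by hybridization). Some arrays stood apart. The siTNF replicates 3 and 4, which are the siTNF arrays of amplification batch 2, held 228 and 163 probe sets over 1 log2 above the group median and 453 and 87 below it, against at most 119 and 24 on the other 4 siTNF arrays. The scrambled replicates 1, 2 and 3 had the highest myeloperoxidase (MPO) activity of their group and the highest levels of interferon-gamma response genes.

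The promoter sequences of the targeted gene, of an NF-kB inhibitor and of the gene with the largest difference are shown for description, and no comparison rests on them. They are the 250 bases before the RefSeq start in GRCm38.p6, 5′ to 3′ on the gene's strand, with capitals marking matches to a letter pattern, and were chosen after the values were seen. The patterns searched on both strands were GGG and TTTCC with any 2 bases between them for NF-kB, held by 1.41% of 32851 windows of this length, and AGAACA and TGT with any 3 bases between them for the glucocorticoid receptor, held by 0.368%.
Tnf: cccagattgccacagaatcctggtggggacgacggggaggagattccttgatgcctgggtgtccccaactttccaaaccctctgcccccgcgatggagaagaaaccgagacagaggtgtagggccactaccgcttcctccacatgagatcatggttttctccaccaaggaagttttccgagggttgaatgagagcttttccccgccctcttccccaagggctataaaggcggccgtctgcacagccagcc
Nfkbia: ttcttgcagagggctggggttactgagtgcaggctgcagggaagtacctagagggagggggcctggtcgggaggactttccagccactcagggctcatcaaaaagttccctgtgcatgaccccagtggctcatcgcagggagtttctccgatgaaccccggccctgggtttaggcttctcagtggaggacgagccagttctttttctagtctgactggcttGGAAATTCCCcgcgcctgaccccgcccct
Sgk1: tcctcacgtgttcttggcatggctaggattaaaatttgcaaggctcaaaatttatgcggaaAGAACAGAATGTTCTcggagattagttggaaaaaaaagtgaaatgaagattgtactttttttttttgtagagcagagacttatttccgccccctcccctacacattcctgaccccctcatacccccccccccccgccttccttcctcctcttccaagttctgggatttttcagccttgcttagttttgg
The Tnf window is chr17:35202008-35202257 on the minus strand and matched neither pattern. The Nfkbia window is chr12:55492648-55492897 on the minus strand and holds 1 NF-kB match whose first base lies 29 bases before the start. The Sgk1 window is chr10:21993640-21993889 on the plus strand, the only 1 of 6 windows of that gene with a glucocorticoid receptor match. It holds 1 marked stretch that matches the pattern on each strand, 189 and 186 bases before the start, so these are not 2 separate sites. The glucocorticoid receptor pattern was in no window of Fkbp5, Pdk4, Per1, Tsc22d3, Scnn1b or Scnn1g, genes that appear with Sgk1 later in the text, and Zbtb16 was not matched to a window. A match is a description of the letters and not a bound site.

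The targeted messenger RNA was not lower in the siTNF colons. Tnf (chr17:35199367-35202007) read 9.19, 8.72, 9.42, 9.15, 9.33 and 8.81 in siTNF replicates 1 to 6. It read 9.38, 9.20, 9.47, 8.57, 8.36, 8.56 and 8.67 in scrambled replicates 1 to 7. The groups overlapped throughout, with 4 of 6 siTNF animals above the scrambled mean, and the scrambled animals fell into 3 high and 4 low values. The fitted difference was 0.17 ± 0.16 log2 (SE, 95% interval -0.15 to 0.49, limma adjusted p = 0.891), which places Tnf between 90.4% and 141% of the scrambled level. Array weights turned the sign (-0.04), and the difference was 0.07 without siTNF replicates 3 and 4, 0.34 within hybridization batch 1, 0.071 within hybridization batch 2, 0.55 within amplification batch 3 and 0.29 with log2 MPO as a covariate. In Control colons Tnf ran from 7.60 to 8.67 with a median of 7.91, so the siTNF animals, at 8.72 and above, all lay above the Control range.

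**Figure D1:**
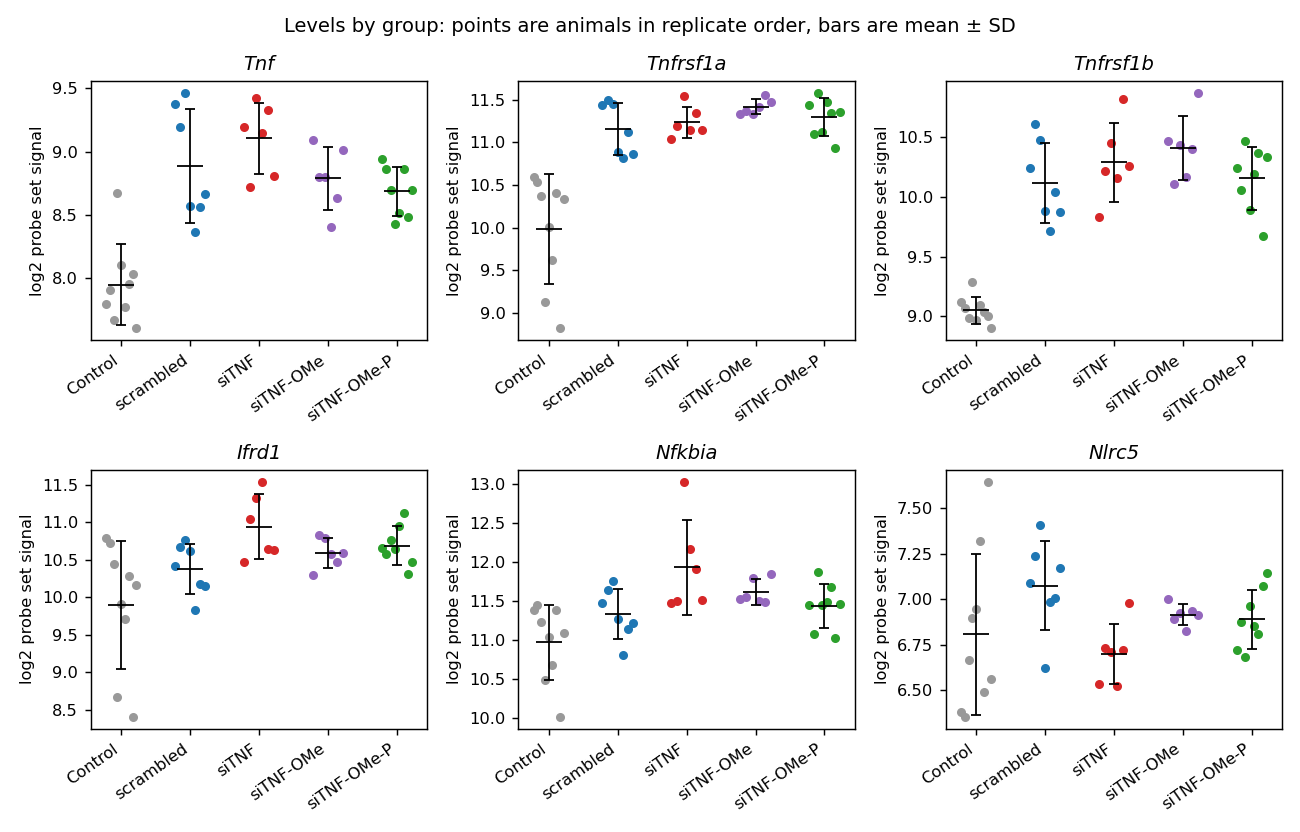
Log2 probe set signals of Tnf, its receptors Tnfrsf1a and Tnfrsf1b, Ifrd1, Nfkbia and Nlrc5 in the 5 groups, with 1 point per animal and bars for the mean and SD. The siTNF points for Tnf, from 8.72 to 9.42, lie within the scrambled range of 8.36 to 9.47, and the Nfkbia point at 13.03 is siTNF replicate 3.

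Against the modified siRNAs, which share no array with this group, Tnf was 0.30 higher than with siTNF-OMe (-0.031 to 0.63, adjusted p = 0.879) and 0.41 higher than with siTNF-OMe-P (0.098 to 0.72, adjusted p = 0.302). Neither difference passed the threshold of an adjusted p of 0.05. Over scrambled, with the scrambled arrays shared, the corresponding Tnf values were -0.13 ± 0.15 with O-methyl and -0.23 ± 0.14 with the propanediol form. The receptors were at similar levels: Tnfrsf1a ran from 11.04 to 11.54 in siTNF and from 10.82 to 11.50 in scrambled, a difference of 0.08 ± 0.11 (interval -0.15 to 0.31). Tnfrsf1b ran from 9.83 to 10.82 and from 9.71 to 10.61, a difference of 0.18 ± 0.17 (-0.16 to 0.53). Of the 28 measured genes for TNF, its receptors and their proximal signalling, 3 had an unadjusted p under 0.05 and all 3 were higher (against 3.7% of all genes): Birc3, an inhibitor of apoptosis and NF-kB target (0.27 ± 0.09), Map3k7, the TAK1 kinase (0.16 ± 0.07), and its partner Tab2 (0.15 ± 0.06). Without siTNF replicates 3 and 4 the count was 1. The median of the 28 was 0.018, or 0.091 without siTNF replicate 3, against -0.0027 over 19938 genes.

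No probe set passed in siTNF over scrambled. With limma, 0 of 28853 probe sets (percent called 0) had an adjusted p under 0.05, and 1333 (4.62%) had an unadjusted p under 0.05, where 1442.65 would be given by a uniform spread of p values. Of those, 893 (3.09%) were higher and 440 (1.52%) lower in siTNF. The lowest adjusted p was 0.211, and the next, 0.891, was shared by 12130 probe sets. A single probe set, for Sgk1, differed by over 1 log2 and 97 by over 0.5. At 1 probe set per gene, 737 genes (3.7%) were higher and 254 (1.27%) lower at an unadjusted p under 0.05, and these shares are the background for the gene lists in this fit. They do not apply to list counts from alternative fits. The shares of all genes in those fits are not given here, so such counts show only how a count moved. The median SE of a difference was 0.0902 log2, and the fit had 20 residual degrees of freedom. The named genes below are those of smallest p, so their sizes are a description of the top of the ranking.

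**Figure D2:**
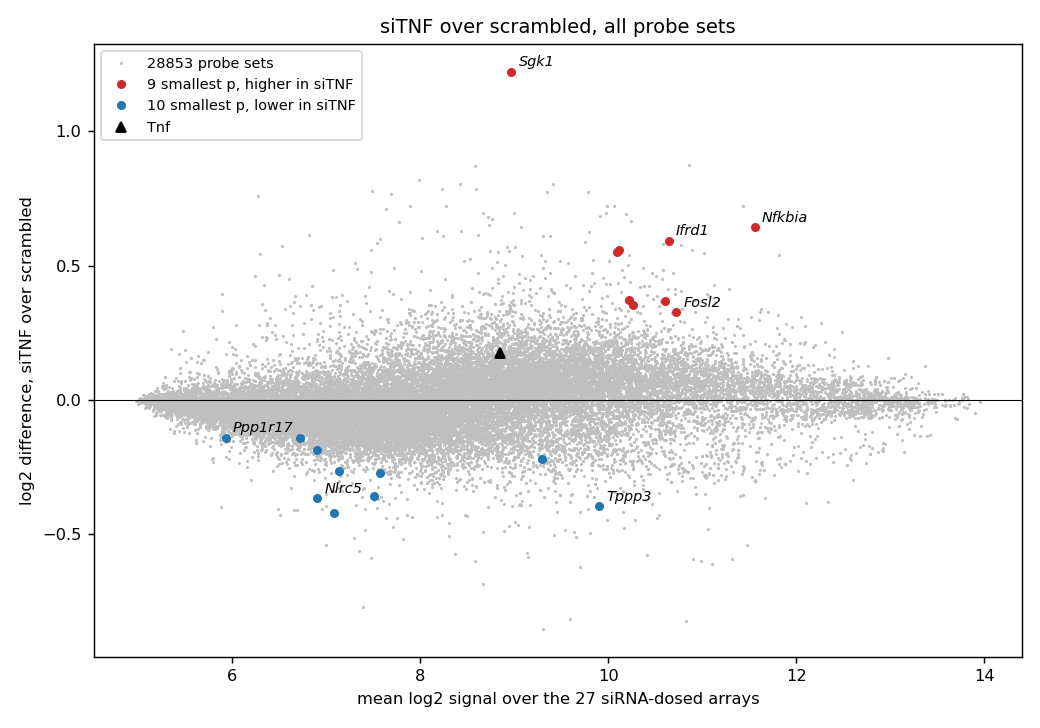
Log2 difference of siTNF over scrambled against the mean log2 signal over the 27 siRNA-dosed arrays, for 28853 probe sets, with 9 higher and 10 lower genes of smallest p and Tnf marked. Most points lie within 0.5 of 0, Sgk1 is the highest at 1.22, and Tnf sits at 0.17.

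The smallest p belonged to Ifrd1 (chr12:40203129-40223189), an interferon-related developmental regulator that acts as a transcriptional co-regulator. It read 10.47, 11.04, 11.32, 11.54, 10.64 and 10.63 in siTNF and 10.41, 10.67, 10.77, 10.62, 9.83, 10.18 and 10.15 in scrambled. All 6 siTNF animals were above the scrambled mean and 3 were above every scrambled animal, a difference of 0.59 ± 0.10 (interval 0.38 to 0.81, adjusted p = 0.211). The difference was between 0.51 and 0.76 within each of the 4 batches that could be fitted alone, was 0.45 without siTNF replicates 3 and 4, and passed (0.66) when siTNF replicate 1 was left out. Ifrd1 was also 0.41 ± 0.11 above siTNF-OMe and 0.34 ± 0.10 above siTNF-OMe-P, with adjusted p of 0.879 and 0.289.

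The other higher genes of smallest p include transcription factors and stress genes, and each had an adjusted p of 0.891. Fosl2 (chr5:32136472-32157840), a Fos-family subunit of AP-1, read 11.01, 10.81, 11.14, 10.93, 10.99 and 10.72 in siTNF against 10.51 to 10.81 in scrambled. Only siTNF replicate 6 lay within the scrambled range, and the difference was 0.33 ± 0.07, or 0.31 without siTNF replicates 3 and 4. Ets2, an ETS-family transcription factor, differed by 0.37 ± 0.09, with 4 of 6 siTNF animals above every scrambled animal, and by 0.30 without those 2 arrays. Emd, which encodes the nuclear envelope protein emerin, differed by 0.35 ± 0.09 and by 0.35 without them. The differences of Higd1a, a hypoxia-inducible mitochondrial protein (0.56 ± 0.13), Hspb7, a small heat shock protein (0.55 ± 0.13), and Hnrnpdl, an RNA-binding protein (0.37 ± 0.09), went to 0.33, 0.34 and 0.17 without siTNF replicates 3 and 4.

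Complete separation of the 13 animals was rare. All 6 siTNF values lay above all 7 scrambled values for 9 probe sets (0.0312%) and below them for 1 (0.00347%). The named ones that were higher were Jmjd6, a Jumonji-domain protein (0.27 ± 0.08), Tbc1d2b (0.29 ± 0.10), Eaf1, an elongation factor partner (0.26 ± 0.08), Entpd7, a nucleotide-hydrolysing enzyme (0.24 ± 0.08), Tet2, a 5-methylcytosine oxidase (0.22 ± 0.07), Eif6, a factor of ribosome assembly (0.20 ± 0.06), and Cdca4 (0.13 ± 0.07), each with an adjusted p of 0.891. These were named after their values were seen. Jmjd6 read 9.57 to 10.02 in siTNF and 9.45 to 9.56 in scrambled, so the gap between the groups was small beside the range within siTNF.

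The probe set that lay lower in all 6 siTNF animals belongs to Nlrc5 (chr8:94434335-94527272), the transactivator of MHC class I genes. The Nlrc5 probe set of smallest p read 6.53, 6.73, 6.71, 6.52, 6.72 and 6.98 in siTNF and 7.09, 7.24, 7.41, 6.62, 6.99, 7.01 and 7.17 in scrambled, a difference of -0.36 ± 0.09 (adjusted p = 0.891). Scrambled replicate 4 overlapped the siTNF animals there, and the other 6 scrambled animals were above all of them. Nlrc5 has 19 probe sets, of which 19 were below 0 and 11 had an unadjusted p under 0.05, with differences from -0.36 to -0.014 and a median of -0.24. These probe sets read 1 transcript and are not separate tests. The smallest-p probe set stayed between -0.19 and -0.48 within the 4 batches that could be fitted and was -0.34 without siTNF replicates 3 and 4.

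Other lower genes of smallest p were mostly dim. Tppp3, a tubulin-binding protein, read 9.09 to 9.93 in siTNF and 9.81 to 10.14 in scrambled, a difference of -0.40 ± 0.13 that was -0.19 without siTNF replicates 3 and 4. Cngb1 (-0.42 ± 0.14), Apol10a (-0.36 ± 0.12), Parp11, an ADP-ribosyltransferase (-0.27 ± 0.09), Dnah3, a dynein heavy chain (-0.26 ± 0.09), Ppp1r3b, a glycogen-targeting phosphatase subunit (-0.22 ± 0.07), Rgs6 (-0.18 ± 0.06), Chek2, a DNA damage kinase (-0.14 ± 0.05), and Ppp1r17 (-0.14 ± 0.04) made up the rest, each with an adjusted p of 0.891. Ppp1r3b read 8.91 to 9.49 in siTNF and 9.24 to 9.61 in scrambled, and the other 7 lay between 5.68 and 8.09 in all 13 animals. The SD over probe sets was 1.69 to 1.74 on scrambled arrays 5 to 7 and 1.76 to 1.81 on scrambled arrays 1 to 4. It was 1.69 on siTNF array 3 and 1.77 to 1.89 on the other siTNF arrays. In scrambled replicates 5 to 7 against 1 to 4, Ppp1r17 read 6.05 to 6.17 against 5.90 to 5.94, and Parp11 7.40 to 7.57 against 7.57 to 8.09. A fit with array SD as a covariate gave 0 called probe sets and turned the sign of none of these lower genes. Their sizes in that fit are not given here, and the part of array spread was not tested further.

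NF-kB inhibitors and subunits lay on the higher side. Of 30 measured genes of the NF-kB list, 27 were above 0, 9 were higher at an unadjusted p under 0.05 (against 3.7% of all genes), none passed after adjustment over all probe sets, and the median was 0.20. Nfkbia (chr12:55489409-55492647), which encodes the inhibitor that holds NF-kB in the cytoplasm, read 11.47, 11.50, 13.03, 12.17, 11.91 and 11.52 in siTNF. It read 11.47, 11.64, 11.75, 11.27, 10.81, 11.14 and 11.22 in scrambled. The siTNF replicates 3, 4 and 5 were above every scrambled animal, a difference of 0.64 ± 0.16 that was 0.46 without siTNF replicate 3 and 0.39 without replicates 3 and 4. The other 8 were Ier3, an early response survival gene (0.61 ± 0.25), Cebpd, a transcription factor of the acute phase (0.54 ± 0.20), Tnfaip3, the A20 inhibitor (0.30 ± 0.13), the subunit genes Rela (0.23 ± 0.08) and Nfkb2 (0.16 ± 0.08), the inhibitor Nfkbib (0.23 ± 0.08), Tnip2 (0.18 ± 0.07) and the survival gene Bcl2l1 (0.17 ± 0.08). Ptgs2, the inducible cyclooxygenase, had the largest difference (0.77 ± 0.48, adjusted p = 0.891) with a siTNF range of 7.83 to 11.55 and a scrambled range of 7.83 to 10.81. Irf1, which also belongs to the interferon response, was lowest at -0.35 ± 0.21.

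The count of NF-kB genes moved with single arrays. Without siTNF replicate 3 it was 4 higher and 1 lower with a median of 0.13, and without siTNF replicates 3 and 4 it was 2 higher with a median of 0.11. The mean level of the list was 10.17 in siTNF replicate 3 against 9.25 to 9.68 in the other siTNF animals and 9.06 to 9.80 in scrambled. In the same animal the mean of the 19 measured neutrophil markers was 10.03, against 7.74 to 8.01 in the other siTNF animals and 7.77 to 8.75 in scrambled, and the list count without that animal is given above. With log2 MPO, an enzyme activity of neutrophils, as a covariate the NF-kB list had 14 genes higher and a median of 0.31. In whole colon RNA, fewer cells of a type and less RNA per cell cannot be told apart. Over the whole neutrophil list 14 of 19 markers were above 0 and 0 had an unadjusted p under 0.05, with a median of 0.16 that became -0.066, with 2 genes lower, without siTNF replicate 3 and 0.40, with 9 genes higher, with log2 MPO as a covariate. For both lists the shares of all genes in the alternative fits are not given here.

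Immediate early genes, which are transcribed within minutes of a stimulus, had a median difference of 0.25, with 17 of 18 above 0 and 5 higher at an unadjusted p under 0.05 (against 3.7% of all genes). The 5 were Dusp1, a MAP kinase phosphatase (0.72 ± 0.31), Zfp36, which destabilises Tnf and other cytokine messenger RNAs (0.30 ± 0.13), Ier5 (0.28 ± 0.12), the AP-1 subunit Fosl1 (0.26 ± 0.11) and Klf4 (0.20 ± 0.09). Dusp1 read 9.26, 10.09, 11.77, 10.66, 9.89 and 9.45 in siTNF against 9.06 to 10.39 in scrambled. Replicates 3 and 4 were the highest for Dusp1, whose difference was 0.43 without replicate 3 and 0.31 without both. Without replicate 3 the list count was 2, and without both the list kept its median (0.25) but 0 of its genes had an unadjusted p under 0.05. The fit without these arrays has 4 siTNF animals.

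Genes of the interferon-gamma response and antigen presentation lay on the lower side. Of 22 measured genes 0 were above 0, where 48.7% of all genes were, and 5 were lower at an unadjusted p under 0.05 (against 1.27% of all genes), with a median of -0.24. The 5 were Gbp4, an interferon-inducible GTPase (-0.81 ± 0.39), the immunoproteasome subunit Psmb9 (-0.36 ± 0.16), the peptide transporter subunit Tap2 (-0.27 ± 0.12), Nlrc5, read here by its brightest probe set (-0.25 ± 0.11), and Ciita, the transactivator of MHC class II genes (-0.24 ± 0.08). Ido1, which degrades tryptophan, had the largest difference, -0.85 ± 0.48, and the class II genes H2-Aa, H2-Ab1 and H2-Eb1 differed by -0.06 each. Ifng, the cytokine itself, was dim at 6.75 to 7.19 in siTNF and 6.93 to 7.46 in scrambled, a difference of -0.27 ± 0.09. None passed after adjustment (adjusted p = 0.891 for Gbp4, Ido1 and Ifng).

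The spread behind these values lay in the scrambled group. Gbp4 read 11.33, 11.41 and 10.84 in scrambled replicates 1, 2 and 3 and 9.06, 8.66, 9.50 and 9.26 in replicates 4 to 7, while siTNF ran from 8.84 to 9.67. Ido1 read 11.36, 11.70 and 10.93 in the same 3 animals and 8.12 to 9.87 in the other 4, with 8.23 to 9.91 in siTNF. The chemokine Cxcl10, a textbook interferon-gamma target, read 10.60, 10.70 and 10.64 against 7.91 to 8.22, and its siTNF values of 8.56 to 9.64 lay between the scrambled clusters. For Gbp4, Ido1 and Cxcl10 no siTNF value reached the 3 high scrambled animals. MPO activity in these 3 scrambled animals was 1.06, 1.35 and 0.474 U per mg against 0.238 to 0.393 in the other 4. The count of lower genes was 2 without scrambled replicate 1, 1 without scrambled replicate 2, 1 without scrambled replicate 3 and 2 without siTNF replicate 3. With log2 MPO as a covariate the list median went from -0.24 to -0.14 and 0 genes had an unadjusted p under 0.05, and the part of inflammation in this difference was not tested beyond this fit.

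**Figure D3:**
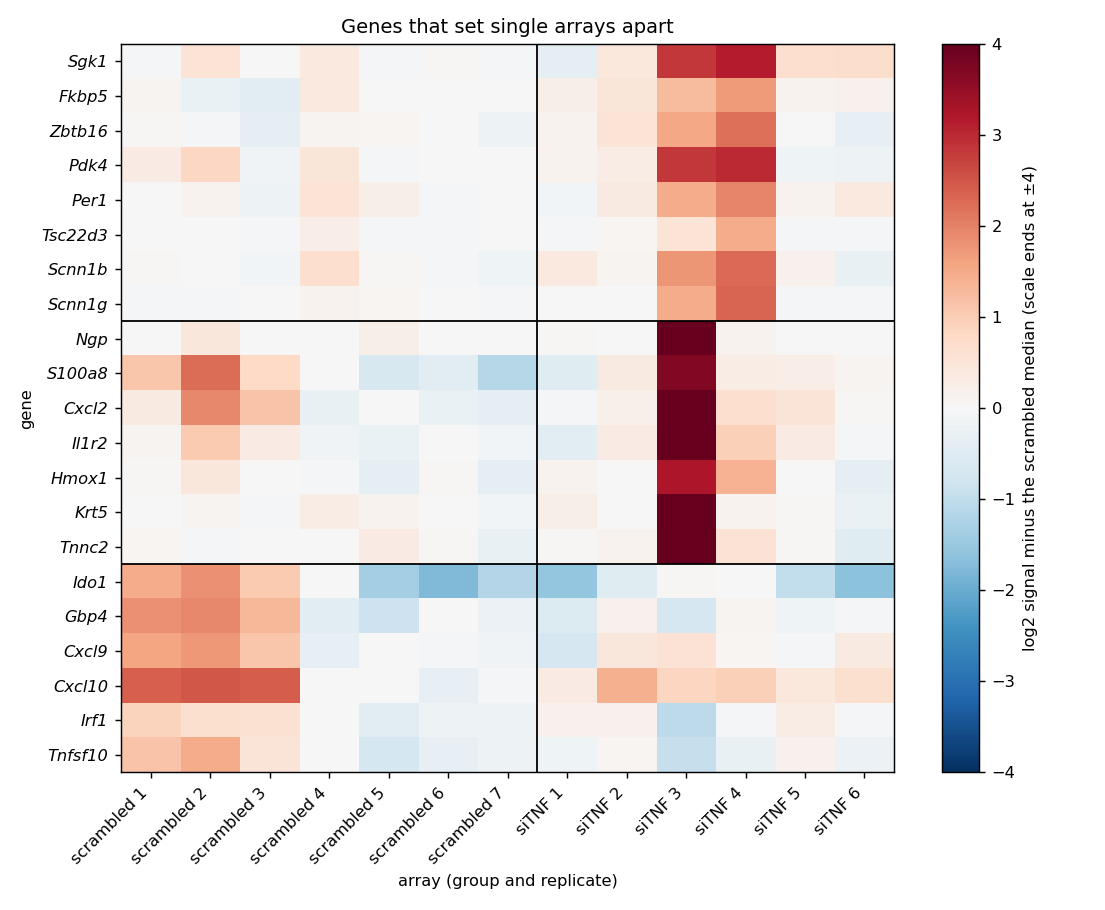
Log2 signal minus the scrambled median for 21 genes in the 7 scrambled and 6 siTNF arrays, with red for higher, blue for lower and a scale that ends at 4 log2 either way. The upper block is high in siTNF replicates 3 and 4, the middle block in siTNF replicate 3, and the lower block in scrambled replicates 1, 2 and 3.

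The sign of the interferon lists differed between batches, which also differ in the scrambled animals they hold: replicates 1 and 2 are in hybridization batch 1, replicate 3 is in batch 2, and amplification batch 3 holds replicates 5, 6 and 7. Batch and these animals cannot be told apart here. Within hybridization batch 1, with 3 arrays a group, the median of the interferon-gamma list was -0.38 with 9 genes lower, and within batch 2, with 3 and 4 arrays, it was 0.057 with 2 lower. Within amplification batches 2 and 3 it was -0.36 and 0.075. Gbp4 itself was 0.059 within hybridization batch 2 and 0.31 within amplification batch 3, against -0.81 over all arrays. The type I interferon list, of genes that double-stranded RNA can induce, had 0 of 28 genes above 0 and 0 with an unadjusted p under 0.05, with a median of -0.13, while without siTNF replicate 4 it had 7 lower and a median of -0.27. Its median was -0.48 within hybridization batch 1, where 11 genes were lower, and 0.20 within batch 2, where 0 had an unadjusted p under 0.05. The shares of all genes in the fits within batches or without siTNF replicate 4 are not given here. The nucleic acid sensors, receptors for foreign RNA and DNA, had a median of -0.081 with 0 of 20 at an unadjusted p under 0.05, and 0.021 with 1 higher without siTNF replicate 3. Over scrambled, with the same scrambled arrays, Ido1 differed by -0.94 ± 0.47 with siTNF-OMe, and by -0.92 ± 0.44 with siTNF-OMe-P.

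Genes that carry out RNA interference had small differences. Of 19 measured, 15 were above 0, the median was 0.049 and 1 was higher at an unadjusted p under 0.05 (against 3.7% of all genes). Without siTNF replicate 3 the count was 4, all higher, with a median of 0.12, and without replicate 4 it was 0. The shares of all genes in those fits are not given here. The gene in the fit of all arrays was Dicer1, the ribonuclease that makes small RNAs from longer duplexes, at 9.23 to 9.77 in siTNF and 9.01 to 9.32 in scrambled, a difference of 0.20 ± 0.09 (adjusted p = 0.891). Ago2, the Argonaute that cleaves messenger RNA, differed by 0.0019. Tnrc6b, a partner of Argonaute, was lowest at -0.08 ± 0.08.

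**Figure D4:**
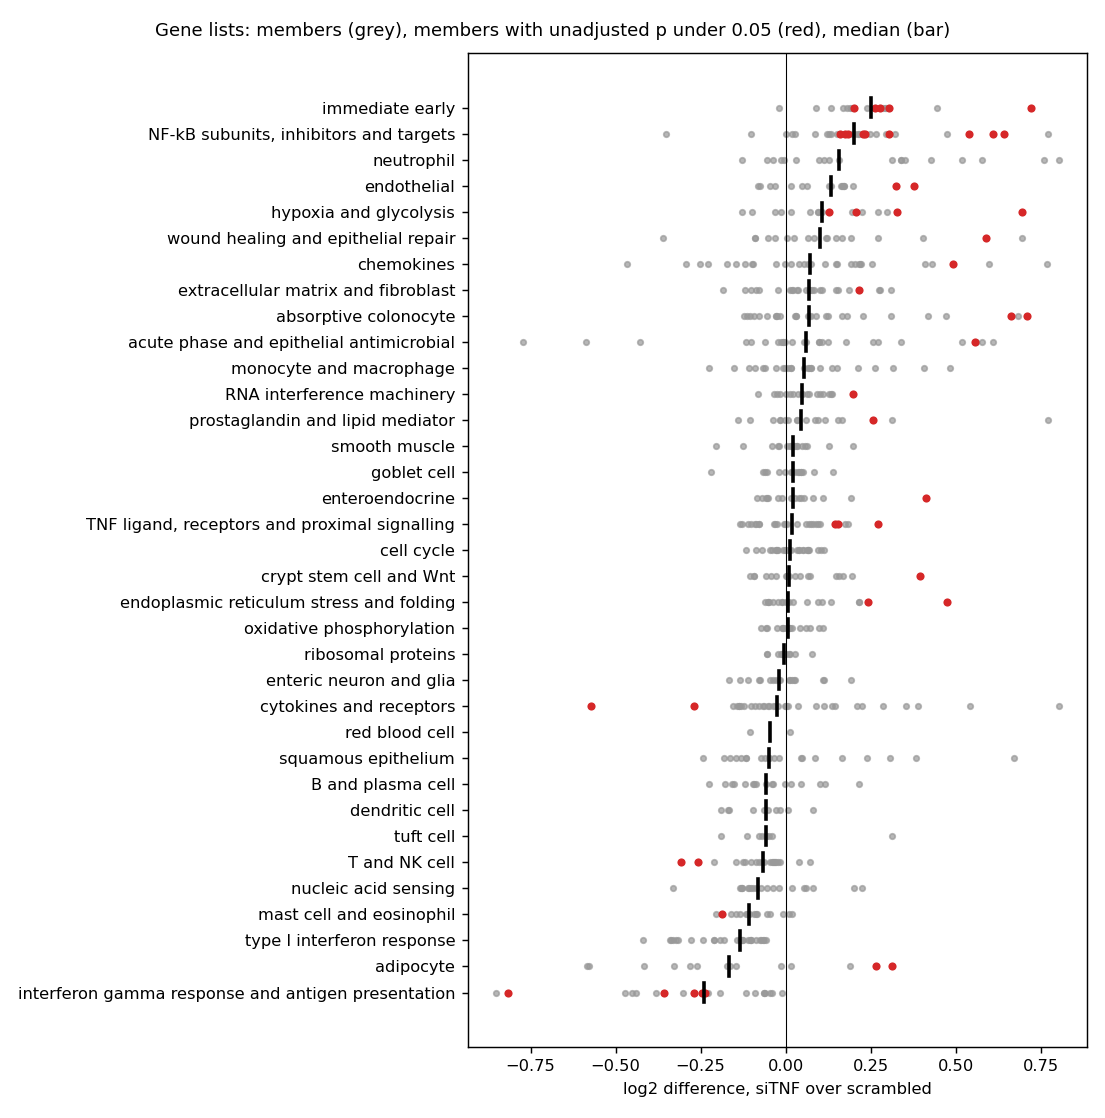
Log2 difference of siTNF over scrambled for the measured members of 35 gene lists, 1 point per gene and 1 row per list, with members of unadjusted p under 0.05 in red and the list median as a bar. The immediate early list has the highest median (0.25) and the interferon-gamma list the lowest (-0.24), and no member passed after adjustment over all probe sets.

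Hypoxia and glycolysis genes included 4 of 17 that were higher at an unadjusted p under 0.05 (against 3.7% of all genes), with a median of 0.11: Adm, the vasodilator adrenomedullin (0.70 ± 0.22), Vegfa, the vascular growth factor (0.33 ± 0.11), Slc2a1, a glucose transporter (0.21 ± 0.09), and Ldha, lactate dehydrogenase (0.13 ± 0.05). Adm read 9.80, 9.96, 11.94, 10.88, 10.47 and 9.47 in siTNF and 9.11 to 10.46 in scrambled, with replicates 3, 4 and 5 above every scrambled animal. The Adm difference was 0.47 without replicate 3 and 0.32 without replicates 3 and 4. Without siTNF replicate 4 the count was 2, and without siTNF replicates 3 and 4 the median was 0.099 and 0 genes had an unadjusted p under 0.05. Of 20 endoplasmic reticulum stress genes, 2 were higher (against 3.7% of all genes) with a median of 0.0073. The 2 were Herpud1 (0.47 ± 0.13, or 0.30 without replicates 3 and 4), which takes part in protein degradation, and the transcription factor Atf4 (0.24 ± 0.07). Without siTNF replicates 3 and 4 the list count was 10 and the median 0.22. The share of all genes in that fit is not given here, so the count of 10 is not read as a result about the list. Herpud1 read 10.91, 10.68, 10.96, 11.88, 10.81 and 10.71 in siTNF and 10.35 to 10.87 in scrambled. Chemokines had 1 of 30 higher, the B cell attractant Cxcl13 (0.49 ± 0.20), and cytokines 0 higher and 2 of 34 lower, Ifng and Tnfsf10, the death ligand TRAIL (-0.57 ± 0.28). Over all genes 3.7% were higher and 1.27% lower, and 1 higher of 30 is near that share. Without siTNF replicate 3 the chemokine count was 1 higher and 2 lower, and the cytokine count 1 higher and 8 lower with the median going from -0.027 to -0.098. The share of all genes in that fit is not given here, so these counts are not read as results about the lists. Monocyte and macrophage markers had 0 of 25 with an unadjusted p under 0.05 and a median of 0.055. T and NK cell markers had 2 of 22 lower (against 1.27% of all genes), the cytotoxic granule genes Nkg7 (-0.31 ± 0.12) and Gzmb (-0.26 ± 0.12), a count that was 5 without siTNF replicate 3 and 0 without replicate 4.

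Sgk1 (chr10:21882184-21999903), a serum- and glucocorticoid-induced kinase that raises sodium channel activity, had the largest difference of all probe sets, 1.22 ± 0.29 (interval 0.63 to 1.81, adjusted p = 0.891). It read 8.06, 8.83, 11.23, 11.54, 9.07 and 9.13 in siTNF and 8.34, 8.97, 8.41, 8.79, 8.37, 8.46 and 8.36 in scrambled. Replicates 3 and 4 were over 2 log2 above the other 4 siTNF animals, and without them the difference was 0.46. Its level ran from 8.49 to 9.84 in Control, 8.67 to 9.59 in siTNF-OMe and 8.39 to 9.13 in siTNF-OMe-P.

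The same 2 animals were set apart by other genes known as glucocorticoid targets, named after their values were seen. Fkbp5, a co-chaperone of the glucocorticoid receptor, read 10.98 and 11.44 there and 9.86 to 10.21 in the other siTNF animals. Pdk4, which restrains pyruvate oxidation, read 10.28 and 10.41 against 7.23 to 7.73, and Zbtb16, a transcriptional repressor, 11.15 and 11.78 against 9.27 to 10.14. The clock gene Per1 read 9.90 and 10.35 against 8.31 to 8.81, and Tsc22d3, which encodes GILZ, 9.87 and 10.80 against 9.24 to 9.39. The epithelial sodium channel subunits Scnn1b and Scnn1g, induced by corticosteroids in the distal colon, read 9.11 and 9.61 against 7.03 to 7.73, and 9.04 and 9.90 against 7.51 to 7.56. In scrambled none of these 7 genes reached the lower of the 2 values.

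Within amplification batch 2, where siTNF is these 2 animals against 3 scrambled, 33 probe sets passed with limma, 32 higher and 1 lower. They include Sgk1 (2.64 ± 0.19, adjusted p = 6.91e-04), Pdk4 (2.51 ± 0.37, 0.0394), Slc10a6, a steroid sulfate transporter (2.05 ± 0.23, 0.00921), Scnn1g (1.91 ± 0.19, 0.00553), Scnn1b (1.86 ± 0.24, 0.0185), Fkbp5 (1.61 ± 0.23, 0.0376), Per1 (1.57 ± 0.20, 0.0185), the metallothionein Mt1 (1.20 ± 0.18, 0.0414) and the transcription factor Klf15 (1.01 ± 0.12, 0.0174). Others that passed were Hoga1 (1.75 ± 0.14), Depp1 (1.31 ± 0.12), Gsta3 (1.31 ± 0.20), Acer2 (1.17 ± 0.13) and Ppp1r15a (1.10 ± 0.14), and some were unnamed. The genes named here are a selection. The 2 animals had already been singled out by high values of several of these genes, so the adjusted p values describe those values and add no support. Within amplification batch 3 and hybridization batch 1 0 passed, and within hybridization batch 2 1 unnamed probe set did. Amplification batch 1 holds 1 scrambled array and was not fitted alone. No Control, scrambled, siTNF-OMe or siTNF-OMe-P array exceeded 9.84 for Sgk1. Other genes of the set were less apart: among arrays of the same amplification batch Zbtb16 read 10.46 and 10.65 in siTNF-OMe replicates 3 and 4 and 10.62 and 10.55 in siTNF-OMe-P replicates 3 and 4, and Pdk4 read 8.88 in siTNF-OMe replicate 3. Scnn1g reached 9.04 in Control replicate 1.

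Within the 13 animals, siTNF replicate 3 stood apart for genes of further tissues. It was the highest siTNF animal for neutrophil genes (Ngp 10.37 against 5.92 to 6.07, S100a8 12.27 against 8.10 to 8.96), for the neutrophil attractant Cxcl2 (11.61 against 6.84 to 7.58), for the decoy receptor Il1r2 (11.70 against 7.29 to 8.66) and for the haem-degrading enzyme Hmox1 (12.31 against 8.67 to 10.45). Krt5, a keratin of squamous epithelium, read 11.85 against 6.96 to 7.48, and Tnnc2, a troponin of fast skeletal muscle, 12.43 against 7.59 to 8.64. The mean of the 21 squamous markers was 8.36 in that animal against 7.06 to 7.20 in the other siTNF animals and 7.11 to 7.36 in scrambled. This was not particular to that animal in the series, since the squamous mean reached 9.41 in siTNF-OMe and 10.15 in siTNF-OMe-P, and Krt5 reached 11.80 and 12.27 there. Its MPO activity, 0.703 U per mg, was the highest of the siTNF group, and its epithelial values were low, with Vil1 at 11.33 against 12.02 to 12.38.

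Setting siTNF against the modified siRNAs gave 0 called probe sets in both comparisons with limma. Over siTNF-OMe 1425 probe sets (4.94%) had an unadjusted p under 0.05, 2.87% higher and 2.07% lower, and over siTNF-OMe-P 4322 (15%), 6.16% higher and 8.82% lower. When siTNF replicate 3 was left out, 5076 probe sets passed over siTNF-OMe-P and 0 passed over siTNF-OMe. The 0 called over siTNF-OMe-P in the fit reported thus depended on the presence of that 1 array. Within hybridization batch 2, which does not hold that array, 4273 passed over siTNF-OMe-P, and within amplification batch 2 44 did, with 15 over siTNF-OMe. Sgk1 was 0.81 ± 0.30 above siTNF-OMe and 0.96 ± 0.28 above siTNF-OMe-P, and Nfkbia 0.40 ± 0.16 and 0.55 ± 0.15 above them. Hnrnpdl was 0.43 ± 0.09 and 0.35 ± 0.08 higher, with adjusted p of 0.879 and 0.234. Nlrc5 differed by -0.22 ± 0.10 and -0.20 ± 0.09, and Ido1 by 0.087 ± 0.49 and 0.070 ± 0.46.

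None of the 4 colon measures passed the threshold, and the intervals were wide with 6 and 7 animals. MPO activity, carried by neutrophils, was 0.199, 0.442, 0.703, 0.204, 0.208 and 0.057 U per mg in siTNF and 1.06, 1.35, 0.474, 0.298, 0.238, 0.270 and 0.393 in scrambled, with 5 of 6 siTNF animals below the scrambled mean. The exact permutation test, two-sided over 1716 assignments, gave p = 0.206 and 0.557 after adjustment over 4 measures for the difference of -0.281, and the smallest p it can give is 5.828e-04. MPO averaged 0.302 in siTNF and 0.583 in scrambled, and the interval of the difference, -0.739 to 0.141, holds both a fall and a smaller rise. Without scrambled replicate 2 the MPO difference was -0.153. In the 9 Control animals MPO ran from 0.009 to 0.088, and only siTNF replicate 6 of the 13 siRNA-dosed animals compared here lay in that range. Control colons were 7.2 to 8.1 long as labelled. Within the 2 hybridization batches the MPO difference was -0.513 and -0.124. Colon weight was 167, 159, 195, 171, 149 and 156 mg in siTNF and 151, 155, 168, 183, 174, 180 and 150 mg in scrambled, a difference of 0.310 (interval -17.9 to 19.1, exact permutation p = 0.986). Colon length was 5.2 to 6.4 as labelled in siTNF and 5.8 to 6.7 in scrambled, with the shortest colons in siTNF replicates 5 and 6 (5.3 and 5.2). The length differed by -0.238 (interval -0.747 to 0.267) and the weight to length ratio by 0.0912 mg per mm (-0.162 to 0.344), with exact permutation p of 0.329 and 0.418 and an adjusted p of 0.557 for both. The length difference was -0.133 without scrambled replicate 3, -0.131 without siTNF replicate 5 and -0.111 without siTNF replicate 6, and the ratio difference was lowest, at 0.0414, without siTNF replicate 3. The label gives length in mm, but the labelled ratio matched weight over length taken in cm, within 0.01, for 33 of 36 animals. Scrambled replicate 7 was 1 of the other 3 (2.76 against 2.59), and with all ratios recomputed the difference was 0.116.

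**Figure D5:**
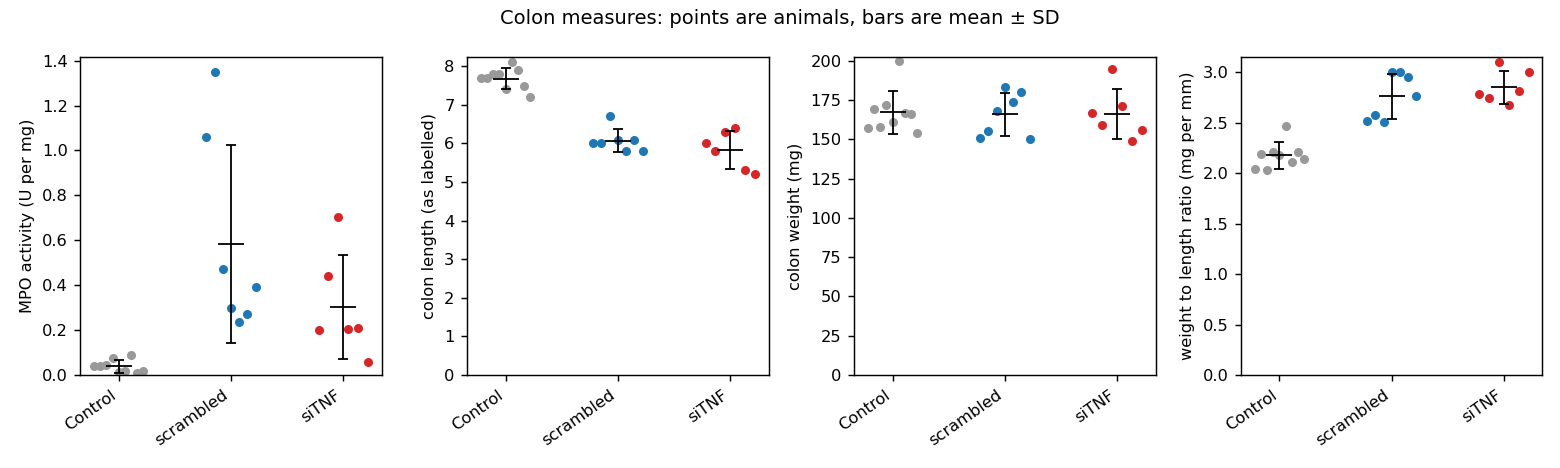
MPO activity in U per mg, colon length as labelled, colon weight in mg and weight to length ratio in mg per mm for Control, scrambled and siTNF animals, with 1 point per animal and bars for the mean and SD. For MPO the scrambled animals run from 0.238 to 1.35 and the siTNF animals from 0.057 to 0.703, and for weight the ranges of 150 to 183 and 149 to 195 mg coincide closely.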

How the data were processed

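The deposited log2 signals, 1 per probe set, come from Partek with RMA, per the submitters' processing notes, with no versions given; array type, background step and any batch removal are not given in the sources used here. Per the labels, RNA was amplified from 25 ng in 3 amplification and 2 hybridization batches. Of the 28853 probe sets, 21789 carry 1 gene, 1621 several and 5443 none. Signal over background is not given, so the number of arrays limits the precision.

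The 27 siRNA-dosed arrays were fitted with limma 3.58.1 in R 4.3.3 by group, amplification and hybridization batch, Control left out, with a mean-variance trend and Benjamini-Hochberg adjustment over all probe sets (two-sided, threshold 0.05). No probe set was filtered. The fit was tested on simulated data with independent noise, no batch effects and no outlying arrays. That test does not show how the fit handles arrays that stand apart. An SE follows each ± of a difference, with 6 and 7 animals. Lists (35, with 700 of 782 places measured) use the probe set with the highest mean per gene, and unadjusted p values only count members. Colon measures were compared by exact permutation in Python 3.11.15 with NumPy 2.4.6, and SciPy 1.17.1 gave the adjustment over 4 measures. Named genes are Tnf and its receptors, the 10 smallest p in each direction (unnamed gene models passed over) and the highest and lowest member of each list; others are stated as chosen after their values were seen, and 1 gene under this rule is not reported here. The members and lists were chosen with earlier results of these data known. Alternatives changed the arrays fitted, batch terms, normalization, filter, weights, covariates, moderation, probe set choice and single arrays; leaving out siTNF replicates 3 and 4 together was added after seeing the data. Promoters are from RefSeq, GRCm38.p6.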

Additional observations from a re-analysis of the deposited data

Results flagged for a closer look

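Of 230 groups of values tested (each named gene and colon measure in siTNF and in scrambled), 33 had 1 animal far from the others by Dixon's ratio, above 0.625 of the range for 6 animals and 0.568 for 7. Chance flags about 1 in 20 groups, a rate that does not apply to genes named because an animal was extreme in them, such as Ngp, S100a8, Tnnc2 and Krt5. The siTNF replicate 3 gave 16 of the 33.

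In siTNF replicate 3 the high values, in log2 signal with the range of the other siTNF animals, were Cxcl2 (11.61 against 6.84 to 7.58), Il1r2 (11.70 against 7.29 to 8.66), Socs1 (8.42 against 8.15 to 8.22), Alox5ap (11.55 against 9.68 to 10.37), Mmp10 (10.84 against 8.44 to 9.00), Ckm (10.84 against 9.54 to 9.94), Krt5 (11.85 against 6.96 to 7.48), Egr3 (8.34 against 7.83 to 7.92), Ngp (10.37 against 5.92 to 6.07), S100a8 (12.27 against 8.10 to 8.96) and Tnnc2 (12.43 against 7.59 to 8.64). The low values were Irf1 (10.05 against 10.99 to 11.39), Spdef (8.98 against 9.60 to 9.77), Vil1 (11.33 against 12.02 to 12.38), Sdf2l1 (9.42 against 10.34 to 10.80) and Cox5a (11.06 against 11.97 to 12.18). Genes of neutrophils (Ngp, S100a8, Il1r2), squamous epithelium (Krt5) and skeletal muscle (Tnnc2, Ckm) were among the high ones, as was the neutrophil attractant Cxcl2. The epithelial genes Vil1 and Spdef were among the low ones.

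In siTNF replicate 4 the distant values were Ppp1r17 (5.68 against 5.85 to 5.93), Dicer1 (9.77 against 9.23 to 9.42), Ighm (8.24 against 9.14 to 9.61), Siglech (7.50 against 8.18 to 8.58), Herpud1 (11.88 against 10.68 to 10.96) and Alox15 (7.21 against 7.69 to 7.86). In siTNF replicate 5 it was Rpl5 (12.89 against 13.01 to 13.08).

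In the scrambled group, replicate 2 stood apart for Nkg7 (8.87 against 8.07 to 8.29), Ccna2 (7.50 against 6.89 to 7.15) and Mmp10 (11.01 against 8.61 to 9.50). Replicate 4 stood apart for Scnn1b (8.01 against 7.16 to 7.40) and Tsc22d3 (9.59 against 9.24 to 9.34). Replicate 5 stood apart for Reg3b (11.24 against 6.38 to 8.47), Tff2 (10.62 against 7.27 to 7.67), Egr3 (8.28 against 7.80 to 7.96) and Rpl5 (12.94 against 13.08 to 13.10), where Reg3b is an antimicrobial lectin and Tff2 a trefoil repair peptide. The colon length of scrambled replicate 3, 6.7 as labelled, was above the 5.8 to 6.1 of the other 6 animals.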

How the results depend on the processing

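With limma, siTNF over scrambled gave 0 called probe sets in 31 of 34 alternatives and 33 within amplification batch 2, 1 within hybridization batch 2 and 0 to 1 with each animal left out in turn. Of the list members 0 passed, or 2 within amplification batch 2. Over siTNF-OMe-P the count was 0 in the fit reported, 7 with quantile normalization, 28 with array SD as a covariate, 2 with the replicate number as a block and 0 to 5076 with each siTNF animal left out; the cause was not tested. The replicate numbers were not taken as pairs: the correlations of same-numbered deviations ran from 0.093 to 0.64, and the replicate block gave 0 called probe sets over scrambled. Tnf turned to -0.040 with array weights and ran from 0.084 to 0.27 with animals left out. Colon weight turned to -5.0 mg with medians and ran from -5.46 to 3.74 mg with animals left out.

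Of 3750 alternative values of 111 named genes 3591 kept their sign and side of the threshold, 10 passed it and 149 had the opposite sign, none of them called in the fit reported. With array weights, the sign was opposite for Tnfrsf1a (-0.014), Cx3cr1 (0.048), Ccr7 (-0.049), Atoh1 (0.013), Vil1 (0.0054), Sdf2l1 (0.19), Cox5a (0.014). Without narrow arrays, the sign was opposite for Tnfrsf1a (-0.018), Atoh1 (0.051), Alas2 (-0.081), Sdf2l1 (0.14), Cox5a (0.079), S100a8 (-0.031). Within amplification batch 2 alone, the sign was opposite for Tnfrsf1b (-0.054), Socs1 (0.12), Mcpt1 (-0.051), Spdef (-0.057), Gcg (-0.031), Lgr5 (0.0037), Ereg (-0.10), Tff2 (0.087), Slc4a1 (0.076), Egr3 (0.19). Within hybridization batch 2 alone, the sign was opposite for Mlkl (0.41), Cxcl9 (0.26), Irf9 (0.12), Parp14 (0.023), Zbp1 (0.22), Thy1 (-0.0016), Atoh1 (0.091), Vil1 (0.017), Mcm6 (0.058), Ckm (-0.032), Krt5 (-0.70), Alas2 (-0.040), Sdf2l1 (0.15), Hk1 (0.0033), Cox5a (0.13), Tnnc2 (-0.14), Gbp4 (0.059), Cxcl10 (0.63). Within amplification batch 3 alone, the sign was opposite for Mlkl (0.62), Irf1 (0.41), Cxcl9 (0.28), Tnfsf10 (0.42), Irf9 (0.20), Parp14 (0.18), Ido1 (0.15), Tlr7 (-0.065), Zbp1 (0.34), Thy1 (-0.047), Atoh1 (0.20), Scnn1b (-0.050), Vil1 (0.20), Mcm6 (0.050), Lox (-0.16), Ckm (-0.15), Tek (0.084), Krt5 (-0.36), Alas2 (-0.067), Sdf2l1 (0.34), Cox5a (0.14), Zbtb16 (-0.16), Pdk4 (-0.21), Tsc22d3 (-0.054), Scnn1g (-0.066), Ngp (-0.051), Tnnc2 (-0.46), Gbp4 (0.31), Cxcl10 (0.74). Without siTNF replicates 3 and 4, the sign was opposite for Mlkl (0.035), Cx3cr1 (0.0060), Ccr7 (-0.11), Atoh1 (0.14), Vil1 (0.087), Lox (-0.082), Ckm (-0.021), Tek (0.053), Krt5 (-0.14), Alas2 (-0.030), Sdf2l1 (0.25), Cox5a (0.067), Pdk4 (-0.11), Tnnc2 (-0.26). With only these groups in the fit, the sign was opposite for Socs1 (0.0071), Alas2 (-0.0083), Egr3 (0.0092). With Control arrays included, the sign was opposite for Socs1 (0.0042). With no batch terms, the sign was opposite for Socs1 (0.00070), Alas2 (-0.019). With hybridization batch as the only batch term, the sign was opposite for Socs1 (0.0011), Alas2 (-0.019). Within hybridization batch 1 alone, the sign was opposite for Socs1 (0.057), Tlr7 (-0.026), Mcpt1 (-0.091), Ccr7 (-0.084), Siglech (0.054), Retnlb (-0.19), Pax6 (0.038), Il25 (0.016), Ccna2 (-0.034), Gal (-0.032), Alas2 (-0.033), Slc4a1 (0.049), Egr3 (0.037). With quantile normalization, the sign was opposite for Socs1 (0.0033), Egr3 (0.017). With median centring, the sign was opposite for Socs1 (0.012), Egr3 (0.0048). With array SD as a covariate, the sign was opposite for Socs1 (0.043), Mcpt1 (-0.0015), Mmp10 (0.056), Egr3 (0.065). With log2 MPO as a covariate, the sign was opposite for Socs1 (0.0035), Mmp10 (0.23), Egr3 (0.019), Cxcl10 (0.063). With the replicate number as a block, the sign was opposite for Thy1 (-0.0072), Alas2 (-0.011). With animals left out in turn the range crossed 0 for Mlkl (-0.24 to 0.093), Irf9 (-0.14 to 0.044), Socs1 (-0.078 to 0.028), Mcpt1 (-0.0052 to 0.064), Ccr7 (-0.016 to 0.20), Atoh1 (-0.36 to 0.12), Vil1 (-0.20 to 0.030), Tff2 (-0.55 to 0.050), Mmp10 (-0.43 to 0.032), Tek (-0.16 to 0.0085), Krt5 (-0.12 to 0.88), Alas2 (-0.10 to 0.090), Sdf2l1 (-0.16 to 0.16), Egr3 (-0.13 to 0.028), Cox5a (-0.14 to 0.10), Tnnc2 (-0.017 to 0.92). With 13 animals and a median SE of 0.0902 log2, small differences were not resolved.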

Other observations

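Several further gene groups held 1 or 2 members with an unadjusted p under 0.05 in siTNF over scrambled, none with an adjusted p under 0.05. Over all genes 3.7% were higher and 1.27% lower at that level. A list of 16 to 27 genes with 1 higher member is near that share, so such a gene is not a result about its list. Among 17 endothelial markers Lyve1, a receptor of lymphatic vessels, was higher by 0.38 ± 0.11 and Emcn, an endothelial sialomucin, by 0.32 ± 0.11, with a list median of 0.13. Lyve1 read 11.08 and 11.13 in siTNF replicates 3 and 4 and 10.20 to 10.49 in the other 4. Among 14 adipocyte markers Pparg, a nuclear receptor also found in colon epithelium, was higher by 0.31 ± 0.11 and Slc2a4, the insulin-regulated glucose transporter, by 0.27 ± 0.11, while the list median was -0.17 and Adipoq differed by -0.58 ± 0.55. Pparg read 9.70, 9.65, 9.09, 9.95, 9.57 and 9.43 in siTNF and 9.08 to 9.38 in scrambled, so that siTNF replicate 3 was the one animal inside the scrambled range.

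The gut hormone gene Gcg was higher by 0.41 ± 0.17 among 16 enteroendocrine markers, at 11.00 to 12.10 in siTNF and 10.53 to 11.68 in scrambled. Myc was higher by 0.40 ± 0.16 among 19 crypt and Wnt genes, whose median was 0.0098. Plaur, the urokinase receptor, was higher by 0.59 ± 0.22 among 18 repair genes, Lbp, an endotoxin-binding protein, by 0.56 ± 0.25 among 27 acute phase and antimicrobial genes, and Ptgis, the prostacyclin synthase, by 0.26 ± 0.08 among 18 lipid mediator genes. Fn1, fibronectin, was higher by 0.22 ± 0.09 among 25 matrix genes, and the mast cell protease Mcpt4 differed by -0.19 ± 0.08 among 17 mast cell and eosinophil genes. The goblet cell, cell cycle, smooth muscle, enteric neuron, tuft cell, dendritic cell, B cell, squamous, oxidative phosphorylation and ribosomal protein lists had 0 members with an unadjusted p under 0.05, with medians between -0.059 and 0.022.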
